A study of Mus musculus with 64 samples.

Results

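The genes described here encode the subunits of voltage-gated sodium and calcium channels. They were taken as every row of the deposited gene tables whose symbol is Scn followed by a number, a or b, or begins with Cacna, Cacnb or Cacng. The rule gave 40 genes of 48795 rows: 10 sodium channel alpha subunits, 4 sodium channel beta subunits, 10 calcium channel alpha1 subunits, 4 alpha2delta subunits, 4 calcium channel beta subunits and 8 gamma subunits. All 40 are protein coding in the GRCm38 annotation.

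An alpha or alpha1 subunit forms the pore, which in most of these channels opens when the membrane depolarizes. Sodium channels carry the upstroke of the action potential, and calcium channels turn it into transmitter release, dendritic calcium entry and pacemaking. Beta and alpha2delta subunits set how many channels reach the membrane and how they gate. Most of the genes named as calcium channel gamma subunits encode transmembrane AMPA receptor regulatory proteins (TARPs), which escort AMPA-type glutamate receptors to synapses. Spiny projection neurons, the principal cells of the striatum, receive glutamate input from cortex and thalamus and are the neurons most affected in Huntington's disease.

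Bulk RNA was sequenced from the striatum and cerebral cortex of 32 C57BL/6 mice, 6 months of age, with 4 females and 4 males per genotype and 1 library per tissue and mouse. The genotypes were Q140 Polq+/- (1 knock-in huntingtin allele with a long CAG repeat, and 1 intact copy of Polq, the gene of DNA polymerase theta), Q140 (the knock-in allele alone), Polq+/- and wild type. The labels name no promoter or cell type that limits either allele, and no pooling of animals. In bulk tissue, fewer cells of a type and less RNA per cell cannot be told apart.

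Striatal libraries held 28.7 to 40.6 M gene counts (median 34.7 M) and cortical libraries 30.9 to 40.1 M (median 34.5 M, where M stands for 1e6). All 10 markers of spiny projection neurons were higher in striatum than in cortex of wild type mice, and their summed level in wild type libraries was 3190 to 3690 FPKM in striatum and 86 to 94.9 FPKM in cortex. Polq itself had a median of 0.184 FPKM in Q140 Polq+/-, 0.33 FPKM in Q140, 0.176 FPKM in Polq+/- and 0.316 FPKM in wild type striatum. Of the 16 mice labelled Polq+/-, 4 had 6 to 12 Polq counts in striatum, against 46 to 91 counts in the other 12. Of the striatal libraries, 3 stood apart from the rest of their groups: wild type male 2, with 50.5 FPKM of summed cerebellar granule cell markers against a group median of 4.1, Polq+/- female 3, with 1040 FPKM of choroid plexus markers against a median of 12.5, and wild type male 3, which held the lowest wild type value of 19 of the 40 channel genes. The striatal Q140 comparisons were repeated without these 3 libraries, and the Polq comparisons and their interaction without these 4 mice. The pair Q140 Polq+/- against Polq+/-, which holds all 4 mice, was not fitted without them. Levels and differences between wild type tissues are given with all libraries.

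Levels are given as FPKM (fragments per kilobase of gene, scaled to the library's depth), as deposited and then divided by a TMM factor, so that they are per length and comparable between libraries. Differences are log2 fold changes with their standard error (SE) from edgeR's quasi-likelihood test on counts. A change was called at a Benjamini-Hochberg adjusted p under 0.05 over all genes tested in the tissue, and an adjusted p quoted without another tool is from that test. Of the 40 genes, 22 overlap an annotated gene on the opposite strand, and the sources used here do not state whether reads were counted by strand, so their counts could hold reads of that gene. Of the 40, 36 had enough counts to be tested in striatum and 37 in cortex.

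In wild type striatum, 24 of the 40 genes had a median of at least 10 FPKM, 6 lay between 1 and 10 FPKM, and 10 were under 1 FPKM. Scn4b, whose beta4 subunit supplies the open-channel blocker behind resurgent sodium current, stood highest with 425, 496 and 591 FPKM as the lowest, median and highest of 8 mice. Scn2b, another sodium channel beta subunit, had 89.3, 94.9 and 106 FPKM, and Cacna2d3, an alpha2delta subunit, 77.8, 84.9 and 92.5 FPKM. The ranges of these 2 genes overlapped, although Scn2b was the higher of them in each mouse. Among pore-forming subunits the highest medians were those of Scn2a1, the annotation's name in these tables for the axonal sodium channel gene Scn2a, with 32.4 FPKM, Cacna1e (R-type calcium channel) with 26.6 FPKM and Cacna1h (T-type) with 24.7 FPKM. The wild type ranges of these 3 genes overlapped from one rank to the next, although Scn2a1 was higher than Cacna1e in each mouse. Cacna1e and Cacna1h stood in the reverse order in male 2 (24.2 and 24.3 FPKM). At the bottom, Scn4a (skeletal muscle) and Cacna1f (retina) had medians of 0.00363 and 0.0058 FPKM.

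Cortex had another order. Cacnb3 and Cacng7 were near the top with medians of 104 and 91.7 FPKM, and Scn4b had 41.8 FPKM. Between striatum and cortex of the same 8 wild type mice, in a fit of the 64 libraries blocked by mouse, 33 of 39 genes tested differed: 18 were higher and 15 lower in striatum. Over all genes of that fit 77.1% differed, 39.7% higher and 37.4% lower, so a tissue difference was common. Scn9a, a sodium channel known from nociceptors, was 4.59 ± 0.11 (log2, SE) higher in striatum, at a median of 0.683 FPKM against 0.027 FPKM in cortex. Scn4b was 3.58 ± 0.06 higher and Cacng4, a TARP, 3.35 ± 0.03 higher. Cacna1g, a T-type channel, ran the other way, at a median of 1.48 FPKM in striatum against 18.2 FPKM in cortex (log2 difference -3.55 ± 0.08). Scn1a, a sodium channel concentrated in fast-spiking interneurons, was lower in striatum, at a median of 13.2 FPKM against 28.7 FPKM in cortex (log2 difference -1.20 ± 0.05). Cacng1, named for the skeletal muscle calcium channel, had 527 counts summed over 8 striatal libraries and 2 over 8 cortical ones.

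**Figure D1:**
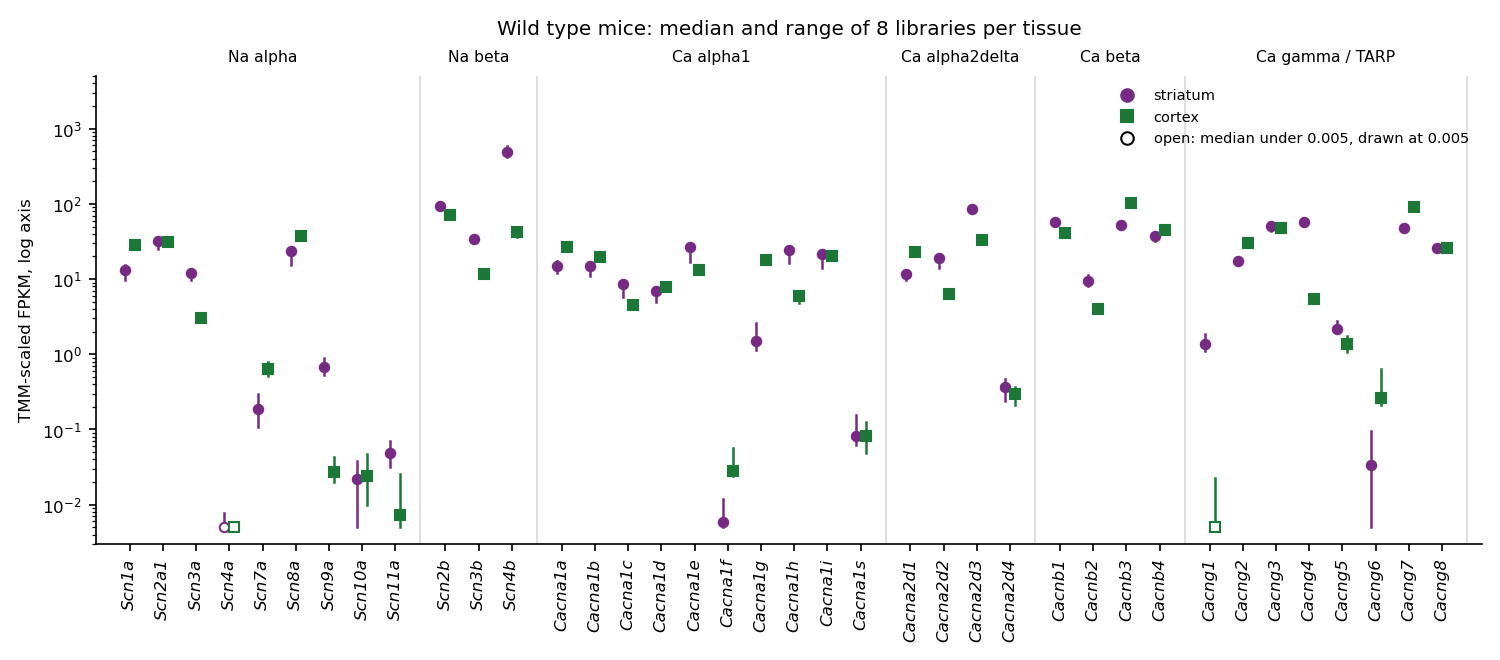
Levels of 38 channel genes in wild type striatum (circles) and cortex (squares), on a log axis of TMM-scaled FPKM; points are medians and lines the range of 8 mice. Scn4b had a median of 496 FPKM in striatum against 41.8 FPKM in cortex, while Cacnb3 had 53 FPKM in striatum against 104 FPKM in cortex.

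The first question of the design is what the Q140 allele does. In striatum, 7 of the 36 channel genes tested were higher in Q140 than in wild type mice and 12 were lower, which is 52.8% of those tested, against 32.1% of all 18270 genes (16.9% higher and 15.2% lower). In the independent pair of groups, Q140 Polq+/- against Polq+/-, 5 were higher and 13 lower, which is 50% against 31.4% of all genes (16.1% higher and 15.3% lower). The 2 pairs of groups share no library. The rises called in both pairs were Cacna2d1, Cacng5, Cacng7, Scn3b and Scn9a (5), and the falls called in both numbered 12. Cacna1b and Cacng8 were called in the first pair only and Scn3a in the second only, and the pairs called no gene in opposite directions. Over all 16 carriers of Q140 against all 16 other mice, 8 of 36 were higher and 14 lower, where 44.8% of all genes were called (23.6% higher and 21.2% lower). Cacna1c was called there as lower, although in neither pair alone. The median log2 change over the 36 genes was 0.01 in the first pair and -0.02 in the second, beside medians over all genes of 0.00184 and 0.00506. In the first pair, 4 of the 36 genes were higher and 7 lower in every Q140 mouse than in every wild type mouse, where 8.22% of all genes had ranges apart. In the second pair 4 were higher and 10 lower without overlap, where 11.5% of all genes had ranges apart.

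Every one of these 19 and 18 calls was kept when DESeq2's size factors took the place of TMM in edgeR. With limma on log2(deposited FPKM + 0.1), which changes the test and drops the TMM factor together, 12 of the 36 were higher and 11 lower in Q140 than in wild type mice, where 29.3% of all genes were higher and 9.91% lower. In Q140 Polq+/- against Polq+/- mice 10 were higher and 11 lower on that scale, where 30.3% of all genes were higher and 9.63% lower. The rises thus grew in number over all genes as well, and the share of channel genes that rose lay near that of all genes. Further rises in the first pair included those of Cacna1a, Cacna1d, Cacna1i and Cacnb4, at log2 differences of 0.09 to 0.20, and Scn2b was no longer called (adjusted p = 0.0573).

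**Figure D2:**
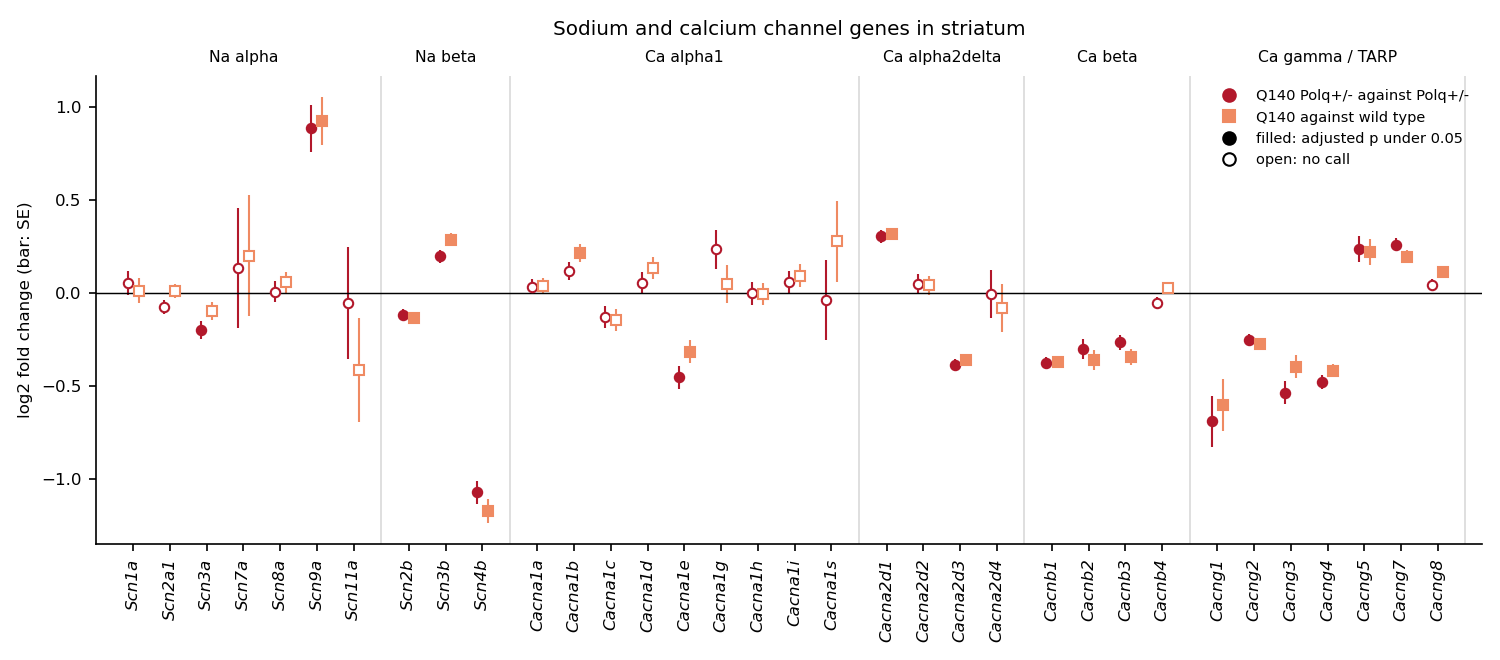
Log2 fold change with its SE for 34 channel genes tested in striatum, in Q140 Polq+/- against Polq+/- mice (circles) and Q140 against wild type mice (squares), 8 mice per group; filled symbols passed the adjusted p threshold. Scn4b lies lowest, near -1.07 and -1.17, and Scn9a highest, near 0.89 and 0.92.

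Of the sodium channel alpha subunits, 1 of 8 tested rose in Q140 striatum and none fell, where 16.9% of all genes rose and 15.2% fell. Scn9a had 1.03, 1.30 and 1.66 FPKM as the lowest, median and highest of 8 Q140 mice, against 0.526, 0.683 and 0.89 FPKM in wild type mice. Every Q140 mouse lay above every wild type mouse. The log2 fold change was 0.92 ± 0.13 (adjusted p = 1.24e-06), from 4554 summed counts in Q140 and 2662 in wild type libraries. Q140 Polq+/- mice ranged over 1.07 to 1.85 FPKM, against 0.573 to 0.944 FPKM in Polq+/- mice (log2 fold change 0.89 ± 0.13, adjusted p = 2.17e-06), again without overlap.

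The alpha subunits that carry most sodium current in adult forebrain showed no call in that pair. Scn8a, the channel of nodes and axon initial segments, had a median of 23.6 FPKM in Q140 and 24 FPKM in wild type striatum (log2 fold change 0.06 ± 0.06, adjusted p = 0.472). Scn2a1 had 31 FPKM in Q140 and 32.4 FPKM in wild type striatum (0.01 ± 0.04, adjusted p = 0.878), and Scn1a had 13.2 FPKM in each (0.01 ± 0.07, adjusted p = 0.902). For Scn8a, Scn2a1 and Scn1a the lowest wild type library was male 3, at 15.6, 25.1 and 9.73 FPKM. Of 8 Q140 mice, 5 lay below the wild type median of Scn8a, 6 below that of Scn2a1 and 4 below that of Scn1a. None of these genes was called in that pair without male 3. Scn3a, a sodium channel more abundant before birth, had medians of 11 FPKM in Q140 and 11.9 FPKM in wild type striatum (-0.09 ± 0.05, adjusted p = 0.138). It was lower in Q140 Polq+/- than in Polq+/- mice, at 9.75 to 10.7 against 10.8 to 13 FPKM (-0.20 ± 0.05, adjusted p = 0.00134), with no overlap. Without wild type male 2 the first pair also passed for Scn3a (-0.13, adjusted p = 0.0122). Scn2a1 passed in the second pair without wild type male 3 (-0.07, adjusted p = 0.0175), in a fit that estimates the spread over all 4 genotypes.

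Among sodium channel beta subunits, Scn4b and Scn2b were lower and Scn3b higher in both pairs. Scn4b had 197, 223 and 251 FPKM as the lowest, median and highest in Q140 mice. Wild type mice had 425, 496 and 591 FPKM. The highest Q140 mouse was far below the lowest wild type mouse, and the log2 fold change was -1.17 ± 0.06 (adjusted p = 6.63e-16). Wild type mice fell into 4 with 425 to 446 FPKM (female 3 and males 2, 3 and 4) and 4 with 547 to 591 FPKM, and both sets lay above all Q140 mice. Q140 Polq+/- mice had 213 to 251 FPKM, against 458 to 535 FPKM in Polq+/- mice (-1.07 ± 0.06, adjusted p = 5.81e-15).

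Scn3b, which binds the alpha subunit without a covalent link, was higher. Its levels were 39.2, 41.3 and 43.1 FPKM in Q140 mice, against 30.3, 34.1 and 36.4 FPKM in wild type mice, without overlap (0.29 ± 0.03, adjusted p = 1.64e-08). Q140 Polq+/- mice had 37.5 to 43.1 FPKM and Polq+/- mice 33.5 to 36.7 FPKM (0.20 ± 0.03, adjusted p = 1.54e-05). Scn2b, the covalently linked neighbour of Scn4b on chromosome 9, 8.324 kb upstream of it on the same strand, changed far less (-0.13 ± 0.03, adjusted p = 0.00122, in the first pair and -0.12 ± 0.03, adjusted p = 0.00357, in the second).

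**Figure D3:**
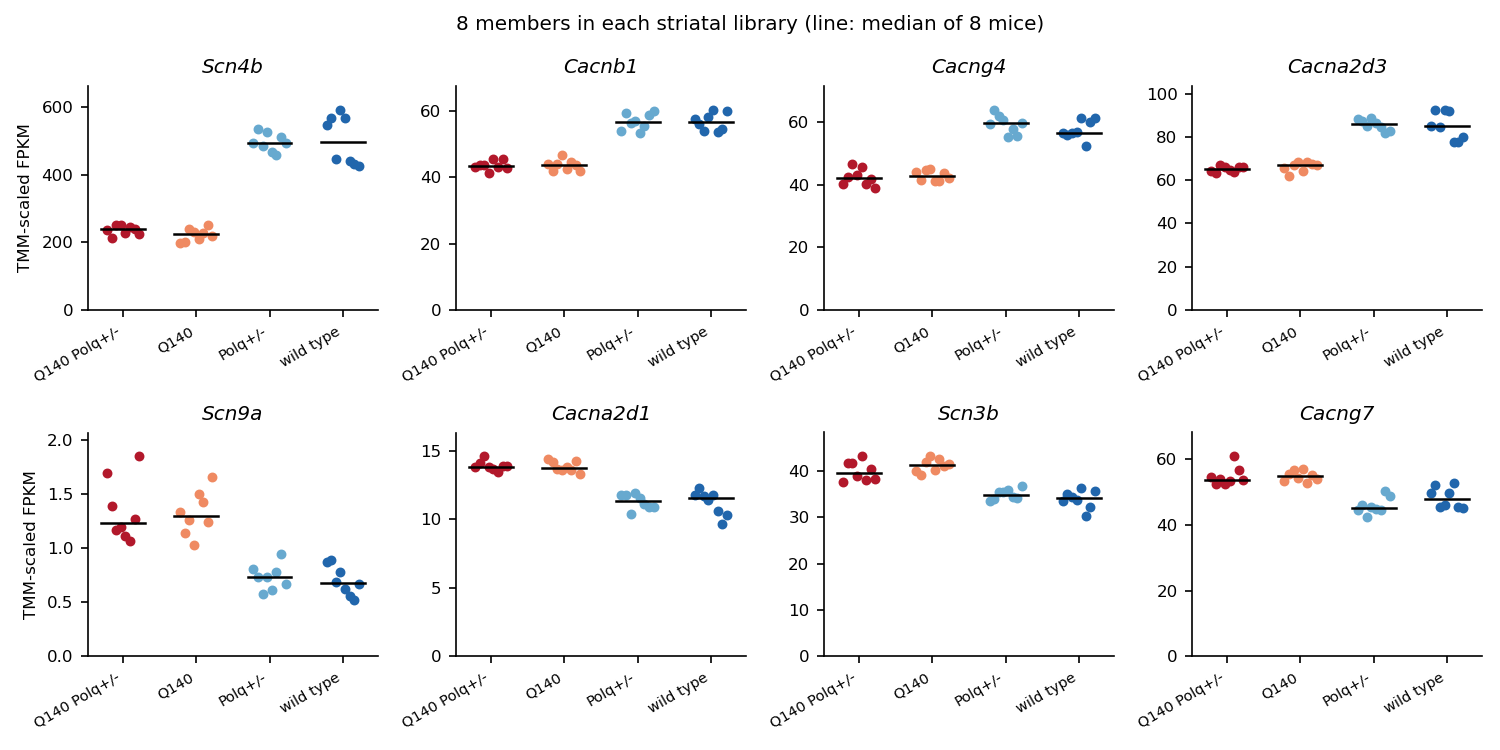
Levels of 8 channel genes in each striatal library, in TMM-scaled FPKM from 0, with 8 mice per genotype as points and the median as a line. In the upper row (Scn4b, Cacnb1, Cacng4, Cacna2d3) both Q140 groups lie below both groups without it, and in the lower row (Scn9a, Cacna2d1, Scn3b, Cacng7) above them.

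Among calcium channel alpha1 subunits, 2 of 9 tested were called in Q140 against wild type striatum, where 32.1% of all genes were called. Cacna1e, the R-type channel, had 18.4, 20.7 and 21 FPKM as the lowest, median and highest in Q140 mice, against 17, 26.6 and 28.2 FPKM in wild type mice (-0.31 ± 0.06, adjusted p = 0.000151). The wild type minimum of 17 FPKM was male 3, and the other 7 wild type mice, with 24.2 FPKM or more, lay above every Q140 mouse. Q140 Polq+/- mice had 17.7 to 21.4 FPKM, against 25.9 to 30.3 FPKM in Polq+/- mice, without overlap (-0.45 ± 0.06, adjusted p = 6.17e-07). Cacna1b, the N-type channel of presynaptic terminals, was higher. It had 15.9, 16.8 and 18.3 FPKM in Q140 mice, against 11, 15 and 15.9 FPKM in wild type mice (0.21 ± 0.05, adjusted p = 0.000799), and the ranges met at 15.9 FPKM. Its difference between Q140 Polq+/- and Polq+/- mice missed the threshold (0.12 ± 0.05, adjusted p = 0.0688). With wild type male 3 left out, it passed at the same estimate (0.12, adjusted p = 0.00278). That library is in neither group of this pair, but it enters the spread, which the fit estimates over all genotypes. The pass thus adds no evidence from the mice compared.

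Of the L-type genes, Cacna1c had a median of 7.47 FPKM in Q140 and 8.56 FPKM in wild type striatum and missed the threshold (-0.14 ± 0.06, adjusted p = 0.0538). Without wild type male 3, the lowest wild type library at 5.73 FPKM, it passed (-0.20, adjusted p = 6.39e-06). Cacna1c then also passed in the second pair (-0.12, adjusted p = 0.00268). That pair holds no wild type library, but its test uses the spread estimated over all genotypes. Over all 16 carriers of Q140 against all 16 other mice, Cacna1c was lower (-0.14 ± 0.04, adjusted p = 0.0063). The other L-type gene of neurons, Cacna1d, made no call (0.13 ± 0.06, adjusted p = 0.0827). Cacna1a, the P/Q-type channel (0.04 ± 0.04), and the T-type genes Cacna1h (-0.01 ± 0.06) and Cacna1i (0.09 ± 0.06) made none either. Wild type male 3 was the lowest wild type library for Cacna1d, Cacna1a, Cacna1h and Cacna1i. It had 4.89, 12.2, 16.2 and 13.9 FPKM, against wild type medians of 6.88, 15.1, 24.7 and 21.5 FPKM. For Cacna1h all 8 Q140 mice lay below that median. Above it lay 7 of 8 for Cacna1d, 7 for Cacna1a and 6 for Cacna1i. Without male 3, 7 genes rose and 13 fell in Q140 against wild type striatum, with Cacna1c the added fall. Cacna1g, the remaining T-type gene, had 1.48 to 1.96 FPKM in Q140 mice, against 1.13 to 2.61 FPKM in wild type mice (0.05 ± 0.10, adjusted p = 0.77). Its wild type maximum was male 2, without which it was higher in Q140 mice (0.19, adjusted p = 0.0228). Q140 Polq+/- mice were then higher than Polq+/- mice too (0.23, adjusted p = 0.00415). The limit is the same as for Cacna1c, because male 2 is in neither of these groups. With all 3 libraries that stood apart left out, Cacna1g made no call in the first pair.

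The alpha2delta subunits, which anchor to the outer face of the membrane and raise the number of channels at presynaptic sites, split in direction. Cacna2d1, the main binding site of gabapentin, had 13.3, 13.7 and 14.4 FPKM in Q140 mice, against 9.64, 11.6 and 12.3 FPKM in wild type mice. The groups did not overlap (0.32 ± 0.03, adjusted p = 9.8e-10), nor did 13.5 to 14.6 FPKM in Q140 Polq+/- and 10.4 to 11.9 FPKM in Polq+/- mice (0.30 ± 0.03, adjusted p = 2.6e-09). Cacna2d3, the most abundant of the family in striatum, had 61.9, 66.9 and 68.4 FPKM in Q140 mice, against 77.8, 84.9 and 92.5 FPKM in wild type mice. It was lower without overlap (-0.36 ± 0.03, adjusted p = 3.2e-11), and again at 63.3 to 67.2 FPKM in Q140 Polq+/- and 82 to 88.9 FPKM in Polq+/- mice (-0.39 ± 0.03, adjusted p = 3.86e-12). Cacna2d2 (0.04 ± 0.05) and Cacna2d4 (-0.08 ± 0.13) made no call. Of the summed alpha2delta level, Cacna2d1 made up a median of 13.8% in Q140 mice and 9.57% in wild type mice, and Cacna2d3 66.6% in Q140 mice and 73.6% in wild type mice.

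The 250 bases upstream of the annotated start of these 2 genes are given here with those of Scn9a, the gene with the highest rise, because they are a pair of related genes that moved in opposite directions and a gene that rose, like Cacna2d1, with a start region of another composition. The sequences are from RefSeq on GRCm38.p6, 5′ to 3′ on the gene's strand, and none of the 3 windows overlaps an annotated exon. Capitals mark the GC box, GGGCGG or its complement CCGCCC, which binds Sp1-family factors; neighbouring copies may overlap.
Cacna2d1, higher with Q140, chr5:15934441-15934690, plus strand: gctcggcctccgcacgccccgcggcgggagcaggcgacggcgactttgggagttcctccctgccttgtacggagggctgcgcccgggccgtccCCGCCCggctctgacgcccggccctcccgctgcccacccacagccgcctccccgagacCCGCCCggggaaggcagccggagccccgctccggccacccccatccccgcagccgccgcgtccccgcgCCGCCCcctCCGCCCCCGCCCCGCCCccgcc
Cacna2d3, lower with Q140, chr14:29721865-29722114, minus strand: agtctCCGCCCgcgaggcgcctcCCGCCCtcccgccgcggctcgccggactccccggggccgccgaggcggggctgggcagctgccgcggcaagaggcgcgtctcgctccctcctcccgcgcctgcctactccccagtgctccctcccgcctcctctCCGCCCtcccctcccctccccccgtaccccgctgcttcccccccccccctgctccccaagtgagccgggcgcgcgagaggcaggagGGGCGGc
Scn9a, higher with Q140, chr2:66634963-66635212, minus strand: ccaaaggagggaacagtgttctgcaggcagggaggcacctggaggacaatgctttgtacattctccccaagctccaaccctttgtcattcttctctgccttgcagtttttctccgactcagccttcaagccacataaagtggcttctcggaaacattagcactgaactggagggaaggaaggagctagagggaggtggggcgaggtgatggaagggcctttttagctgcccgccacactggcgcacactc
The Cacna2d1 window has a GC content of 82.4% with 36 CpG dinucleotides and 6 GC boxes, and the Cacna2d3 window one of 80% with 30 CpG and 4 GC boxes. The Scn9a window has 54.4% with 5 CpG and no GC box. Over all 32851 windows of that length in the RefSeq table the median was a GC content of 52.4% and 6 CpG, and 32.7% held a GC box on either strand. The motif TATAAA, searched on either strand and found in 12.4% of all windows, was in none of the 3. The 2 alpha2delta windows were close in these counts. Matching letters are a description only, and a link between these windows and the changes was not tested.

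Of the 4 calcium channel beta subunits, cytosolic proteins that bind the pore and carry it to the membrane, 3 were lower in both pairs and none was higher. Over all genes 15.2% were lower in the first pair and 15.3% in the second. Cacnb1 had 41.9, 43.9 and 46.7 FPKM in Q140 mice, against 53.7, 56.9 and 60.4 FPKM in wild type mice, without overlap (-0.37 ± 0.03, adjusted p = 3.41e-12). Cacnb3 had 39.2, 41.5 and 44.3 FPKM in Q140 mice, against 46.5, 53 and 59.3 FPKM in wild type mice, also without overlap (-0.34 ± 0.04, adjusted p = 2.49e-08). Cacnb2 had 7.33, 7.58 and 8.43 FPKM in Q140 mice, against 8.14, 9.55 and 11.4 FPKM in wild type mice (-0.36 ± 0.05, adjusted p = 2.4e-06), and only its highest Q140 mouse, male 3, reached the wild type range. The second pair gave -0.38 ± 0.03 for Cacnb1, -0.26 ± 0.04 for Cacnb3 and -0.30 ± 0.05 for Cacnb2, each without overlap. Cacnb4, whose loss causes ataxia and seizures in the lethargic mouse, had medians of 37.7 FPKM in Q140 and 37.9 FPKM in wild type mice (0.03 ± 0.03, adjusted p = 0.555). The 4 genes summed to 128 to 136 FPKM in Q140 mice, against 145 to 168 FPKM in wild type mice, and Cacnb4 made up a median of 28.8% of that sum in Q140 mice and 23.7% in wild type mice.

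All 7 gamma subunit genes tested were called in Q140 against wild type striatum, 4 lower and 3 higher, where 32.1% of all genes were called. The type I TARPs split in direction. Cacng4 had 41, 42.9 and 45 FPKM in Q140 mice, against 52.3, 56.6 and 61.2 FPKM in wild type mice, without overlap (-0.42 ± 0.04, adjusted p = 1.53e-11). Cacng2, stargazin, the gene of the stargazer mouse, had 14.1, 14.4 and 15.2 FPKM in Q140 mice, against 16.6, 17.3 and 18.8 FPKM in wild type mice, without overlap (-0.27 ± 0.03, adjusted p = 1.2e-08). Cacng3 had 32.8, 36.4 and 43.4 FPKM in Q140 mice, against 43.5, 50.9 and 56.1 FPKM in wild type mice (-0.40 ± 0.06, adjusted p = 4.55e-06), and the ranges lay close but apart. In the second pair Cacng4, Cacng2 and Cacng3 were lower without overlap, by log2 values of -0.48 ± 0.04, -0.25 ± 0.03 and -0.53 ± 0.06. Cacng8, the remaining type I gene, was slightly higher in Q140 mice, at 25.9, 27.8 and 30.4 FPKM against 24.1, 25.8 and 27.3 FPKM in wild type mice (0.11 ± 0.03, adjusted p = 0.00511), with overlap, and made no call in the second pair (0.04 ± 0.03, adjusted p = 0.31).

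Both type II TARPs were higher. Cacng7 had 52.8, 54.7 and 56.9 FPKM in Q140 mice, against 45.1, 47.8 and 52.6 FPKM in wild type mice (0.20 ± 0.03, adjusted p = 2.15e-05). Its ranges did not overlap in that pair, nor in the second (0.26 ± 0.03, adjusted p = 1.53e-07). Cacng5 had 2.33, 2.51 and 3.1 FPKM in Q140 mice, against 1.94, 2.2 and 2.8 FPKM in wild type mice (0.22 ± 0.07, adjusted p = 0.0145), with overlap, and was also higher in the second pair (0.23 ± 0.07, adjusted p = 0.00877). Of the gamma genes that are neighbours on a chromosome, Cacng1 and Cacng4, 15.83 kb apart on chromosome 11, both fell in the first pair, while Cacng5, 80.05 kb beyond Cacng4, rose. Cacng7 and Cacng8, 22.46 kb apart on chromosome 7, both rose in that pair. Cacng1 had 0.576, 0.852 and 1.35 FPKM in Q140 mice, against 1.1, 1.37 and 1.86 FPKM in wild type mice (-0.60 ± 0.14, adjusted p = 0.000831), with overlap and from 316 summed counts in Q140 and 527 in wild type libraries. Of 4 muscle markers, 3 had a median under 0.1 FPKM in every striatal group. Their summed level was 1.61 to 2.38 FPKM in Q140 and 2.26 to 3.49 FPKM in wild type striatum, with Acta1 lower and Ttn higher in Q140, and its part in the Cacng1 result was not tested.

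Spiny neuron markers moved in the same libraries. Of 10 such markers, 9 were lower in Q140 than in wild type striatum, with Drd1 at -0.60 ± 0.04 and Drd2 at -0.61 ± 0.04. Their summed level was 1880 to 2170 FPKM in Q140 mice, against 3190 to 3690 FPKM in wild type mice, and 1960 to 2120 FPKM in Q140 Polq+/- mice, against 3290 to 3540 FPKM in Polq+/- mice. None of these markers was at 0. In the second pair 8 of the 10 were lower and Tac1 was higher (0.14 ± 0.05, adjusted p = 0.0247). All 5 endothelial and 4 of 5 microglial markers were also lower in Q140 than in wild type mice, and 2 of 5 oligodendrocyte markers. In Q140 Polq+/- against Polq+/- mice the counts were 3 of 5 endothelial, 0 of 5 microglial and 2 of 5 oligodendrocyte markers lower. Other lists showed few calls. In the first pair 0 of 5 astrocyte, 0 of 4 oligodendrocyte precursor, 0 of 5 thalamic and 0 of 7 interneuron markers were lower, and 1 interneuron marker, Gad2, was higher. In the second pair 1 of these markers was called, the astrocyte marker Slc1a3, which was lower. Beside these marker counts, 15.2% of all genes were lower in the first pair and 15.3% in the second. Of 6 cortical excitatory markers tested, 2 were higher, among them Cux2 (0.40 ± 0.07), while the summed list was 4.35 to 5.16 FPKM in Q140 striatum, 3.67 to 8 FPKM in wild type striatum and 362 to 387 FPKM in wild type cortex. The part of these shifts in the channel results was not tested.

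Partner genes of the channels were read from 3 lists. Of 12 partners of sodium channels at the axon initial segment, 1 rose and 3 fell in Q140 striatum, a share close to the 32.1% of all genes called in that comparison. In the second pair none rose and 4 fell. The falls were Nedd4l, a ubiquitin ligase that removes sodium channels from the membrane (-0.30 ± 0.05), Trim46, an organizer of initial segment microtubules (-0.24 ± 0.04), and Fgf14, an intracellular channel partner (-0.16 ± 0.04), and all 3 also fell in the second pair. The rise was Fgf12 (0.10 ± 0.03), which missed the threshold in the second pair (0.07 ± 0.03, adjusted p = 0.115). Ank3, the scaffold of the initial segment, made no call (-0.03 ± 0.07). Of 21 partners of calcium channels and AMPA receptors, 3 were higher and 9 lower in the first pair, with a list median of -0.17 beside 0.00184 over all genes, and 2 higher and 9 lower in the second, with a list median of -0.08 beside 0.00506. Gsg1l, an AMPA receptor auxiliary protein, was lower (-0.66 ± 0.05), as was Rem2, a small GTPase that inhibits calcium channels (-0.43 ± 0.05). Cnih3, an AMPA receptor cornichon, was higher (0.67 ± 0.12), with Rimbp2, which ties calcium channels to the release site (0.26 ± 0.05). Of the 4 genes of the sodium leak channel complex, the pore Nalcn (0.12 ± 0.03) and Fam155a (0.31 ± 0.06) were higher in the first pair and none was lower. In the second pair Fam155a was higher (0.43 ± 0.06) and Nalcn missed the threshold (0.04 ± 0.03, adjusted p = 0.294).

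In cortex, neither pair of groups gave a called channel gene. In Q140 against wild type cortex edgeR called 0 of 37, with 5 at an unadjusted p under 0.05, where 0.348% of all genes were called. DESeq2 called none there. In Q140 Polq+/- against Polq+/- cortex edgeR called 0, with 9 at an unadjusted p under 0.05 and 0.337% of all genes called. DESeq2 called 1 rise (Scn3a) and 1 fall (Cacng3) there, where it called 0.294% of all genes higher and 0.837% lower. No channel gene had ranges apart in either cortical pair, beside 0.116% of all genes in each. When all 16 carriers were set against all 16 other mice, 4 of 37 passed, where 2.46% of all genes were called (0.85% higher and 1.61% lower). Scn3a and Scn3b were higher, and Cacng3 was among those lower.

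Scn3a had cortical medians of 3.27 FPKM in Q140 Polq+/- and 3.29 FPKM in Q140 mice, against 2.9 FPKM in Polq+/- and 3.08 FPKM in wild type mice (carriers against the rest, 0.14 ± 0.03, adjusted p = 0.023). Scn3b had 13.1 FPKM in Q140 Polq+/- and 13.4 FPKM in Q140 mice, against 11.6 FPKM in Polq+/- and 11.7 FPKM in wild type mice (0.16 ± 0.04, adjusted p = 0.0448). Cacng3 had 44.8 and 46.7 FPKM in Q140 Polq+/- and Q140 mice, against 48.1 and 47.3 FPKM in Polq+/- and wild type mice (-0.08 ± 0.02, adjusted p = 0.0242). The genotype ranges overlapped for each of these 3 genes. All 4 calls were lost with the plate column of the labels' well addresses as a further term, at adjusted p = 0.123 for Scn3a, 0.0652 for Scn3b and 0.0986 for Cacng3. With that term 1.47% of all genes were called, against 2.46% without it. Genotypes were spread unevenly over the plate columns, so plate column and genotype cannot be fully told apart.

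The effect of Q140 was then compared between tissues within mice, over all 16 carriers and 16 other mice. It differed for 24 of 39 channel genes, with 32% of all genes as background (15.7% more positive and 16.3% more negative in striatum): 10 were more positive and 14 more negative in striatum. The difference was -1.04 ± 0.05 for Scn4b (adjusted p = 3.77e-16), -0.47 ± 0.03 for Cacng4 (adjusted p = 5.36e-15) and 0.32 ± 0.02 for Cacna2d1 (adjusted p = 5.36e-15). Scn3a was called in opposite directions, lower in striatal carriers (-0.15 ± 0.03) and higher in cortical ones (0.14 ± 0.03). The difference of -0.29 ± 0.05 passed (adjusted p = 4.28e-05), while the cortical call was lost with the plate column term, as given above. For Scn3b, higher in both tissues, the difference did not pass (0.07 ± 0.05, adjusted p = 0.263). Of the 13 genes lower in Q140 Polq+/- than in Polq+/- striatum, 9 were higher in striatum than in cortex of wild type mice, 3 were lower and 1 made no call. Over all 2798 genes lower in that comparison, 66% were higher in wild type striatum and 22.8% lower, so the channel genes lay near that share. Of the 5 that rose, 3 were higher and 2 lower in wild type striatum, and of the 18 with no call 6 were higher, 8 lower and 4 not called. Over all 2943 genes that rose, 26.5% were higher and 57.7% lower in wild type striatum, and over the 12529 with no call 39.5% were higher and 33.6% lower.

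**Figure D4:**
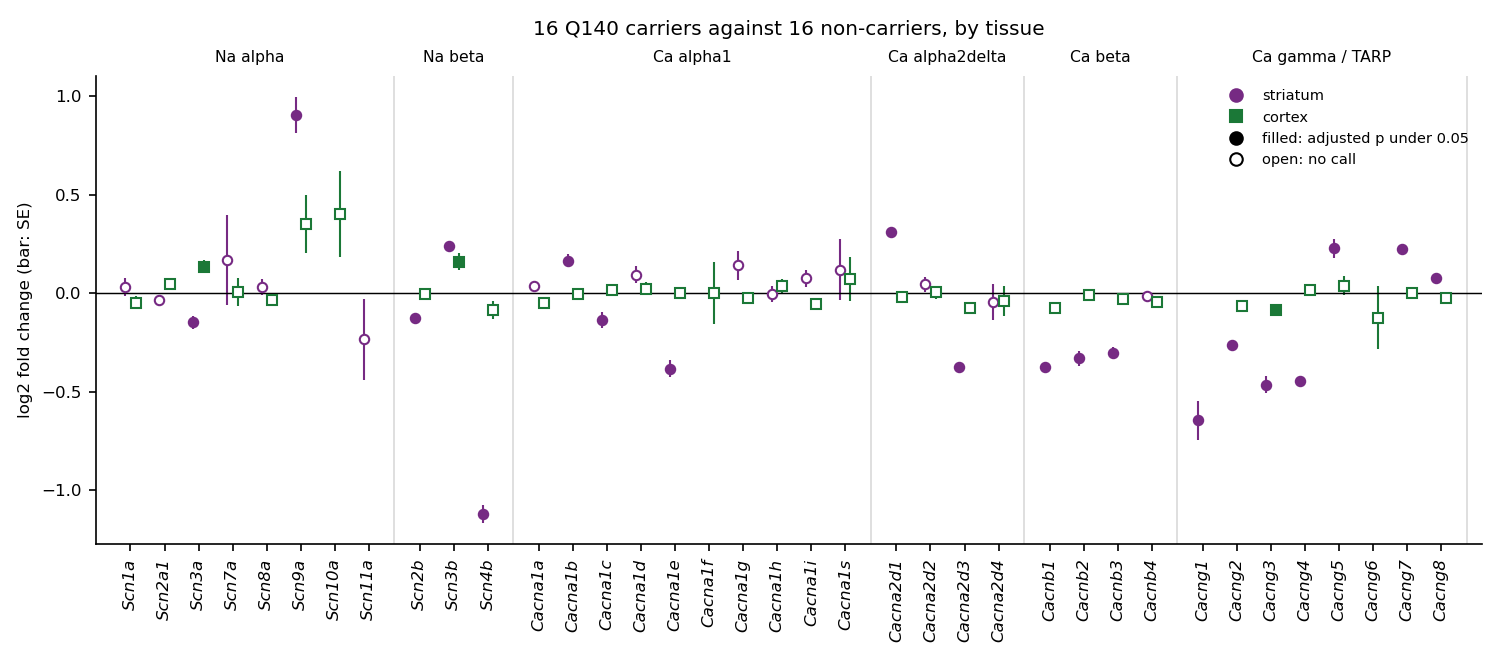
Log2 fold change with its SE for channel genes in 16 Q140 carriers against 16 mice without the allele, in striatum (circles) and cortex (squares); filled symbols passed the adjusted p threshold. Striatal values run from -1.12 for Scn4b to 0.90 for Scn9a, and the 3 called cortical values drawn lie between -0.08 and 0.16.

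The design also asks what 1 lost copy of Polq does, with and without Q140. Neither comparison, nor their interaction, gave a called channel gene in either tissue under edgeR. In striatum, Polq+/- against wild type called 0 of 36, with 3 at an unadjusted p under 0.05 and 0.0493% of all genes called, and Q140 Polq+/- against Q140 called 0, with 0 at that unadjusted level and 0.0547% of all genes called. The striatal interaction called 0 channel genes, with 0 at that level, and 0% of all genes. In cortex, Polq+/- against wild type called 0 of 37, with 2 at an unadjusted p under 0.05 and 0.0442% of all genes called. The cortical counts were 0 and 4 for Q140 Polq+/- against Q140 (0.0552% of all genes called), and 0 and 3 for the interaction (0%). DESeq2, limma on FPKM and the fits without the 4 mice of very low Polq called 0 as well. In striatum the 17 genes chosen by rule had log2 differences of -0.09 to 0.08 in Polq+/- against wild type and -0.10 to 0.09 in Q140 Polq+/- against Q140 mice. For Scn4b, levels were 213, 239 and 251 FPKM in Q140 Polq+/- mice, against 197, 223 and 251 FPKM in Q140 mice, and 458, 493 and 535 FPKM in Polq+/- mice, against 425, 496 and 591 FPKM in wild type mice. Scn9a in cortex differed most between Polq+/- and wild type mice (0.61, 95% interval 0.185 to 1.03), from 156 summed counts in Polq+/- and 101 in wild type libraries, and did not pass adjustment (adjusted p = 0.998).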

How the data were processed

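Counts per gene and FPKM values were deposited by the authors as 2 tables of 48795 genes and 64 libraries, from total RNA with a stranded TruSeq preparation per the labels' protocols. Per the submitters' processing notes, reads were processed with STAR 2.7.5c, SAMtools 1.10 and HTSeq 0.12.3 on GRCm38 (mm10). No source used here names the strand setting or the annotation release. The deposited FPKM are the deposited counts rescaled, with a relative spread of 6.9e-09 over 15456 genes. The labels' protocol text speaks of striatal dissection only, and the tissue was taken from each sample's tissue label.

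Counts were tested with edgeR 4.0.16 (quasi-likelihood, robust, TMM, filterByExpr by genotype, sex as covariate), with the 32 libraries of a tissue in 1 fit. Tissue contrasts were fitted on the 64 libraries together, blocked by mouse. Adjusted p-values are Benjamini-Hochberg values over every gene tested. Alternatives used DESeq2 1.42.0 and limma 3.58.1 in R 4.3.3, with log2(FPKM + 0.1) or log2(FPKM + 1) for limma. The fits were tested on simulated data. Members were named as the 8 rises and 8 falls of smallest adjusted p in Q140 against wild type striatum (where that many passed), and those called in cortex or for Polq, 17 in all; others are named by family. Counts cover all members, but values of 2 members and 1 marker are not reported here. The members, partner lists and marker lists were chosen with earlier results of these data known. Sequences are from RefSeq, whose promoter table held 30 of the 40 genes, with gene models of GENCODE M21.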

Additional observations from a re-analysis of the deposited data

Results flagged for a closer look

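Among the named channel genes, 136 groups of 8 libraries were checked for a library far from the other 7, and 4 held one, where chance flags about 1 in 20 groups. Cacng2 in Polq+/- striatum had 18.6 FPKM in female 3, the library with choroid plexus markers, against 16.6 to 17.2 FPKM in the others. Cacng2 in Q140 Polq+/- striatum had 12.5 FPKM in male 4, against 14 to 15 FPKM in the others. Cacnb2 in Q140 striatum had 8.43 FPKM in male 3, against 7.33 to 7.67 FPKM. Cacna1b in wild type striatum had 11 FPKM in male 3, against 14.5 to 15.9 FPKM, and without that library its rise in Q140 mice kept its call (log2 fold change 0.16).

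The effect of Q140 (16 carriers against 16 other mice) differed between striatum and cortex for 24 genes, 23 of them given here, tested as a difference of log2 fold changes within mice. It was more negative in striatum for Scn4b (-1.04), Cacng4 (-0.47), Cacng3 (-0.389), Cacna1e (-0.385), Cacnb2 (-0.325), Cacnb1 (-0.307), Cacna2d3 (-0.302), Scn3a (-0.286), Cacnb3 (-0.282), Cacng2 (-0.207), Cacna1c (-0.154), Scn2b (-0.131) and Scn2a1 (-0.086). It was more positive in striatum for Cacna1f (1.36), Cacng6 (1.29), Scn9a (0.536), Cacna2d1 (0.324), Cacng7 (0.22), Cacng5 (0.182), Cacna1b (0.168), Cacna1i (0.131), Cacng8 (0.0942) and Cacna1a (0.0816). Cacna1f and Cacng6 rest on few reads: in striatum Cacna1f had 33 summed counts in Q140 and 13 in wild type mice, and Cacng6 had 33 in Q140 and 23 in wild type mice.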

How the results depend on the processing

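Alternatives were scored on 65 calls, from both striatal pairs, all cortical carriers and the tissue difference of the Q140 effect. None turned a direction round: 564 values kept their call and 21 lost it. Calls over all striatal carriers and between wild type tissues were not scored gene by gene. On log2 FPKM with a pseudocount of 0.1 or 1, the striatal rises numbered 12 in Q140 against wild type (7 in the edgeR fit), 10 in Q140 Polq+/- against Polq+/- (5) and 15 over all carriers (8). Over all genes the rises on FPKM (pseudocount 0.1) were 29.3%, 30.3% and 39.3%, against 16.9%, 16.1% and 23.6% with edgeR. The cause was not tested. In cortex, Q140 Polq+/- against Polq+/- gave 1 rise and 1 fall with DESeq2 (0 and 0 with edgeR). All cortical carriers gave 4 falls with DESeq2 and 0 falls on FPKM (2 with edgeR), 1 rise without a low-count filter (2), and 0 rises and 0 falls with the plate column. The causes were not tested.

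With a replicate block on sex and replicate number, the cortical pair Q140 Polq+/- against Polq+/- gave 1 rise, and the striatal counts of 7 and 12, and 5 and 13, were as without the block. Same-numbered libraries did not deviate together in every pair (r of -0.0795 to 0.348 over 48 striatal pairs and 0.0323 to 0.254 over 48 cortical pairs). The median r was 0.159 in striatum and 0.143 in cortex, with 33 striatal and 38 cortical pairs over 0.1. Of the libraries, 11 of 32 striatal and 14 of 32 cortical ones correlated best with their own number. Same-numbered libraries also shared sex, which was not removed from the deviations, so these values cannot tell a shared number from a shared sex. Without the 3 striatal libraries that stood apart, 7 genes rose and 14 fell in the first striatal pair, and 7 rose and 15 fell in the second. In the tissue difference of the Q140 effect, Cacna1c, Cacna1f and Scn2a1 were among those that lost their call on FPKM, and Cacna1i without the mice of those 3 libraries. Depth limits Cacna1f, Cacna1s, Cacng1, Cacng6, Scn4a, Scn10a and Scn11a, which had at most 527 counts summed over the 8 libraries of any group.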
